A study of Mus musculus with 12 samples.

Results

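Nucleosome calls of round spermatids were compared with those of meiotic germ cells after digestion with 1 U of micrococcal nuclease (MNase), the middle of the 3 amounts used in this mouse series. The members are all calls of the 2 lists made at 1 U, taken whole and with no selection by value: 41655 calls in the round spermatid list (RS) and 60077 in the meiotic list (M), together 101732 of the 415758 calls of the series. Both groups came from sexually mature male SV129 mice of 8 to 12 weeks, a strain with no transgene or treatment named in the labels, and each cell collection pooled the testes of 11 animals. Cells were separated by size in a STAPUT gradient and fractions of at least 85% purity were used, so other cells may be present in each. The cells were digested for 7.5 min at 37 °C, and RS had 2 times as many cells as M for the same 1 U, so the enzyme per cell differed between the stages. Sample titles call the M group meiotic spermatid, while their protocol calls the fraction meiotic. No RNA or protein was measured in these lists, so neither fraction could be checked against expressed markers.

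Each group had 2 samples, but the authors made 1 list from both, so the stages were compared as 1 list against 1 list. Replicate error could not be measured and no difference below was tested. The intervals are exact 95% intervals for counting error only, and they are too narrow because neighbouring calls overlap and are not independent. Every call is 140 bp long and carries a p-value. The p-values equal Poisson tail probabilities, which gives the number of reads each one implies: 6 reads at the least in both lists, with a mean of 0.472 reads per window in RS and 0.484 in M. In RS 68.1% and in M 68.5% of calls stood at this minimum, so most single calls depend on 1 read. Unless stated otherwise, calls in 260 dense bins of 10 kb, those with more than 20 calls in any of the 6 lists of the series, were left out. A stage ratio is the number of RS calls over the number of M calls, each divided by its list's calls on the 19 autosomes outside dense bins, 33303 in RS and 49927 in M. A ratio of 1 therefore means the same share of calls. At the other amounts these autosomal calls numbered 164100 in RS and 33909 in M at 0.5 U, and 20315 and 54999 at 2 U. Raw counts of the 2 stages at those amounts therefore cannot be compared without this division.

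A nucleosome is DNA wrapped around a core of histones. MNase cuts the linker between nucleosomes, and DNA that survives marks where histones sat, although weakly held nucleosomes are lost as digestion goes on. During meiosis homologous chromosomes pair and recombine, and the unpaired X and Y are silenced and packed into a sex body. Round spermatids are the haploid cells that follow: they transcribe the genes for the acrosome and the tail, X stays largely repressed in them, and their histones are later acetylated and replaced by transition proteins and then protamines. A pool of round spermatids holds X in some cells and Y in the others, so its dose of X relative to autosomes is that of the meiotic cells.

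Promoters give the closest view of where the calls lay. Of 21263 RefSeq promoter windows on GRCm38 (from 250 bp before to 50 bp after a gene start), 203 held the midpoint of a call in M and 120 in RS, and 13 windows of 10 genes held one in both. The 8 windows shown were chosen after their calls were seen, with bases covered by a 1 U call of either list in capitals and the sequence written 5′ to 3′ in the direction of the gene. Stam, for an endosomal sorting adaptor, and Slc35b1, for a nucleotide transporter of the endoplasmic reticulum, had calls in both lists.
Stam (chr2:14073850-14074149, plus strand): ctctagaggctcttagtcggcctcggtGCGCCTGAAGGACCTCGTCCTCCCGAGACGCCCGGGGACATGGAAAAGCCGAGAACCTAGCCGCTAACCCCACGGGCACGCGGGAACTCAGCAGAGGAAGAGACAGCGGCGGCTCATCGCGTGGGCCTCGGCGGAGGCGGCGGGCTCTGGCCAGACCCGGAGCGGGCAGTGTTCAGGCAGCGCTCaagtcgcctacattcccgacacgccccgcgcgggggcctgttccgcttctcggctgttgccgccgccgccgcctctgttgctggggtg
Slc35b1 (chr11:95384606-95384905, plus strand): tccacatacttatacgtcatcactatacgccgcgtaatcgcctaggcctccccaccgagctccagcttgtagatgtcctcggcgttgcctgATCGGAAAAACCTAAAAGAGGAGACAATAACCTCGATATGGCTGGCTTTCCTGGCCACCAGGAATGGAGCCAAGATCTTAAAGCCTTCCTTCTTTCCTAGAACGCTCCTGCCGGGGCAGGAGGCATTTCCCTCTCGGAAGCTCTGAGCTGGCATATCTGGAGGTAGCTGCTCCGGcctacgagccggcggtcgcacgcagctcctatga
At Stam each list had 2 calls of up to 7 implied reads, and 185 of the 300 bases were covered. The window holds 35 CpG dinucleotides, and lists at other amounts had 2 calls in M at 2 U and 2 in RS at 0.5 U. Slc35b1 had 2 calls in both lists at 1 U, of up to 6 reads in M and 8 in RS, over 175 bases. Its window also had 2 calls in every other list of the series except RS at 2 U, which had 0.

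Another 3 windows had calls in M and none in RS at 1 U. Ranbp1 encodes a cofactor of Ran in nuclear transport, Crisp2 a cysteine-rich protein of the acrosome and tail, and Tekt1 a tektin filament protein of flagellar microtubules.
Ranbp1 (chr16:18248645-18248944, minus strand): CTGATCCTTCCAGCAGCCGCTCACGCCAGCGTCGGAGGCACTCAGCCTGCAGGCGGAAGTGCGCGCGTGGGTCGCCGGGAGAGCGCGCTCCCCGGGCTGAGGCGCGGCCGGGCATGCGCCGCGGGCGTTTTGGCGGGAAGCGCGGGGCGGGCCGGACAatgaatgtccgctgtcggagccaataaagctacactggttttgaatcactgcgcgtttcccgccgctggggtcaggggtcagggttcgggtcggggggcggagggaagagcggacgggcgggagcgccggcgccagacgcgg
Crisp2 (chr17:40794097-40794396, minus strand): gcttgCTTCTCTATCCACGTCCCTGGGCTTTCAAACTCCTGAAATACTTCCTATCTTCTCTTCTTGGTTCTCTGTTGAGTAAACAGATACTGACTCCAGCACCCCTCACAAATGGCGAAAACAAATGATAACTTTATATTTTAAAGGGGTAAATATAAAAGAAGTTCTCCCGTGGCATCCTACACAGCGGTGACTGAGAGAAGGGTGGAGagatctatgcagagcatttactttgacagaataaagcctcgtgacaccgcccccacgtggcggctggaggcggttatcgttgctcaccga
Tekt1 (chr11:72361833-72362132, minus strand): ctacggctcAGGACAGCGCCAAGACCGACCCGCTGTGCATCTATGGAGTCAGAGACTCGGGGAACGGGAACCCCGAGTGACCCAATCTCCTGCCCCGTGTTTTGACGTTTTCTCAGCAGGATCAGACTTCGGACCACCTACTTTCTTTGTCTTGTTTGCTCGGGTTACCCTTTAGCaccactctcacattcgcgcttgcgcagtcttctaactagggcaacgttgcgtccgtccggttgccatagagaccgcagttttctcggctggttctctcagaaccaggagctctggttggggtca
Ranbp1 had 4 overlapping calls of 6 reads in M, over 158 bases. Crisp2 had 3 calls of up to 8 reads over 205 bases, and Tekt1 2 calls of 6 reads over 167. At the other amounts Ranbp1 and Crisp2 had no call in either stage, and Tekt1 had 1 in M at 2 U.

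The last 3 windows had calls in RS and none in M at 1 U. Rps23 encodes a protein of the small ribosomal subunit, Brpf1 a scaffold of histone acetyltransferase complexes and Taf6 a subunit of the general transcription factor TFIID.
Rps23 (chr13:90922872-90923171, plus strand): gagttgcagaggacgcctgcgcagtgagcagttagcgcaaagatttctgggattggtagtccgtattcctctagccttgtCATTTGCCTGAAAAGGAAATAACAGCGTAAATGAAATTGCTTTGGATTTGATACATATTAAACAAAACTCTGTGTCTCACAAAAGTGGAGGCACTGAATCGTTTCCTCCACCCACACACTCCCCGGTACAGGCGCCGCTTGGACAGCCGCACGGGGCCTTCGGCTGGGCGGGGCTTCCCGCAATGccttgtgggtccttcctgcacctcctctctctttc
Brpf1 (chr6:113306887-113307186, plus strand): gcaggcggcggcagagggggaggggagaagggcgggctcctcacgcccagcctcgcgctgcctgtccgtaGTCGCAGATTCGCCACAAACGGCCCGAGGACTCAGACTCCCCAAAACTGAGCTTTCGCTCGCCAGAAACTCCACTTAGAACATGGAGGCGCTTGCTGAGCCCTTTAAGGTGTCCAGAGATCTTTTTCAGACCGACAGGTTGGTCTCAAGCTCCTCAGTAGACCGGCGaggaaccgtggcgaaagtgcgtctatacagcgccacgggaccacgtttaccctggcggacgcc
Taf6 (chr5:138187177-138187476, minus strand): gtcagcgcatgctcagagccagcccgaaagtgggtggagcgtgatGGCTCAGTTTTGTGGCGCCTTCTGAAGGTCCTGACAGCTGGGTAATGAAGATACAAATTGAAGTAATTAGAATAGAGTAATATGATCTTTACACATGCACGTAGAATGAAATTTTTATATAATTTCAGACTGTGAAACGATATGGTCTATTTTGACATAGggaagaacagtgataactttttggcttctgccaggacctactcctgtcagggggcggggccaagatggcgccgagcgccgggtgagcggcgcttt
Rps23 had 3 calls of up to 7 reads over 185 bases, Brpf1 2 calls of 6 reads over 167, and Taf6 2 calls of up to 7 reads over 160. Outside 1 U, Taf6 had 1 call, in RS at 2 U, and the other 2 windows had none in any list. The calls in these 6 windows of a single stage thus rested on 6 to 8 implied reads.

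Base composition of the windows was compared with that of all windows. Median GC content was 54.7% for windows called in M, 54.2% in RS and 56.3% for all, with a median of 15, 12.5 and 13 CpG dinucleotides. GGGCGG, searched on both strands, was present in 44.8% of M windows (37.9 to 51.9), 32.5% of RS windows (24.2 to 41.7) and 46.2% of all, so the RS interval lies below the share of all, and in 0 of the 13 windows called in both lists. CCAAT was in 39.4% of M, 36.7% of RS and 38.2% of all windows, and TATAAA in 15.3%, 10.8% and 12.6%. TGACG was in 29.1% of M windows and in 24 of the 120 RS windows, against 23.6% of all. No motif of these 4 lies within another, and windows of alternative starts of 1 gene share sequence.

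Close to gene starts M had a larger share of its calls than RS, while over a wider window the stages had the same share. Within 1000 bp of a start, the widest window, RS had 662 calls and M 984, a stage ratio of 1.01 (0.913 to 1.11). In the promoter window the numbers were 150 and 292, a ratio of 0.770 (0.628 to 0.941), whose interval includes 1 after merging overlapping calls (0.633 to 1.05) and among calls above the minimum of reads (0.532 to 1.27). Within 500 bp they were 406 and 735, a ratio of 0.828 (0.732 to 0.936). Within 250 bp, a width added after the values were seen, RS had 258 calls and M 539, a ratio of 0.718 (0.616 to 0.834). The same 250 bp ratio was 0.712 at 0.5 U (0.609 to 0.836) and 0.712 at 2 U (0.607 to 0.831), in lists that the 1 U comparison did not use.

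**Figure D1:**
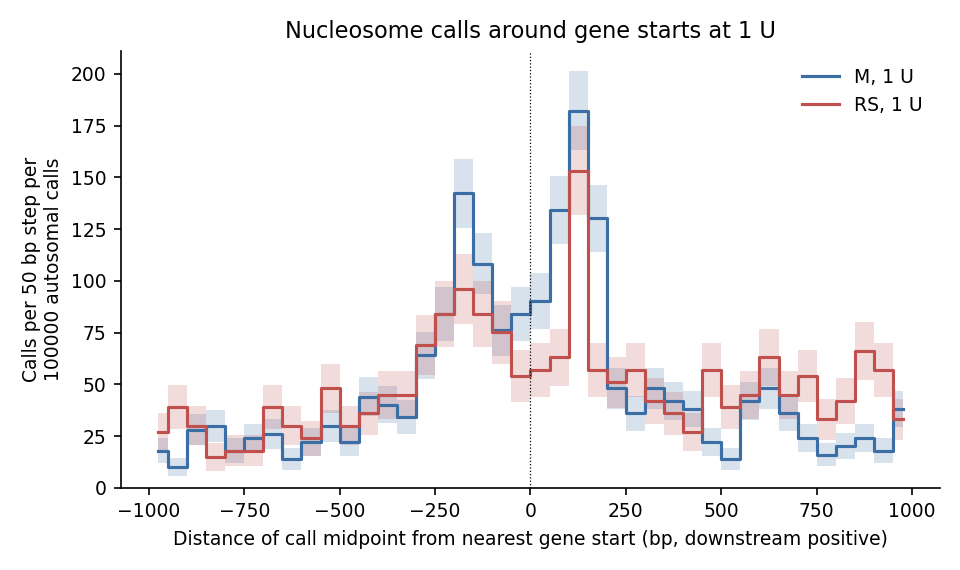
Calls around gene starts at 1 U, in 50 bp steps from 1000 bp upstream to 1000 bp downstream (x axis), per 100000 autosomal calls of each list (y axis). Lines are the M list (blue) and the RS list (red), and bands extend on either side by the value divided by the square root of its count (counting error only). Both lists peak upstream of the start and between 100 and 150 bp downstream, and M lies above RS from 200 to 100 bp upstream and from the start to 200 bp downstream.

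The highest step of the profile in both lists lay 100 to 150 bp downstream of the start, where the first nucleosome of the transcribed region usually sits, with 51 calls in RS (153 per 100000) and 91 in M (182 per 100000). The steps on either side of it, 50 to 100 and 150 to 200 bp downstream, had 134 and 130 per 100000 in M but 63.1 and 57.1 in RS. A second peak lay 150 to 200 bp upstream, with 32 calls in RS and 71 in M. From the start to 100 bp downstream RS had 40 calls and M 112, a ratio of 0.535 (0.363 to 0.775), and between 100 and 250 bp downstream 87 and 180, a ratio of 0.725 (0.554 to 0.941). Beyond 250 bp the ratio was 1.10 upstream (0.807 to 1.5) and 1.18 downstream (0.854 to 1.62), out to 500 bp. Calls per Mb within 250 bp of a start were 3.92 times those 1000 to 2000 bp away in M (3.46 to 4.44) and 2.02 times in RS (1.73 to 2.36).

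The amount of MNase moved with this measure. In M the start over flank value was 2.64 at 0.5 U and 4.38 at 2 U, and in RS it was 1.26 and 2.62. More enzyme thus went with relatively more calls at starts in both stages. Mean reads per window changed as well, from 0.696 at 0.5 U to 0.409 at 2 U in RS and from 0.434 to 0.507 in M. Their part in values compared across amounts was not tested. RS had less enzyme per cell at each amount. At equal MNase per cell the 250 bp ratio was 1.28 when RS at 1 U was set over M at 0.5 U (1.06 to 1.54), and 0.930 when RS at 2 U was set over M at 1 U (0.788 to 1.09). The stage and the enzyme per cell cannot be told apart in the ratio at 1 U.

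At equal units of MNase the stage ratio at starts also differed by the CpG content of the promoter. RS had less enzyme per cell in each of these comparisons, and the classes were not compared at equal MNase per cell. Stage and enzyme per cell therefore cannot be told apart here either. Many CpG-rich promoters belong to genes used in most cells, and CpG-poor ones are more often tissue-specific. The classes were chosen after the data were seen. At 9957 starts with 15 or more CpG in 300 bp, RS had 106 calls and M 280 within 250 bp, a ratio of 0.568 (0.449 to 0.712). At 5271 starts with 5 to 14 the counts were 72 and 148 and the ratio 0.729 (0.542 to 0.973). At 6035 starts with 0 to 4 they were 80 and 111 and the ratio 1.08 (0.800 to 1.45). The intervals of the highest and the lowest class do not overlap at 1 U, and the difference between classes was not tested. At 2 U the 3 ratios from CpG-rich to CpG-poor were 0.648, 0.740 and 0.917, and at 0.5 U 0.622, 0.683 and 0.871, where the intervals of the outer classes overlap.

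**Figure D2:**
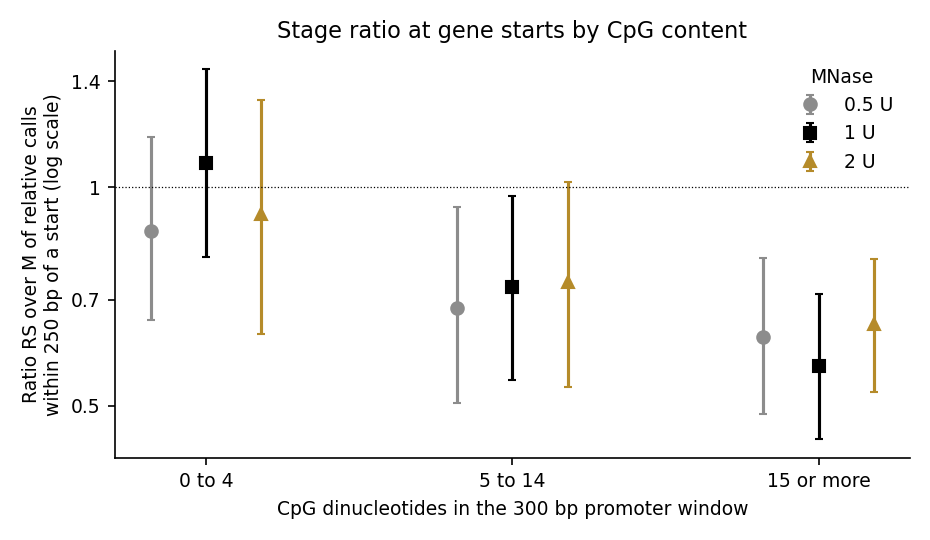
Stage ratio of calls within 250 bp of a gene start (y axis, log scale) by the number of CpG dinucleotides in the promoter window (x axis) at 0.5, 1 and 2 U. Points are ratios of pooled lists and bars exact 95% intervals for counting error; the dotted line marks 1. Each ratio sets RS over M at the same units, so RS had less enzyme per cell. The class of 15 or more lies below 1 at each amount, at 0.622, 0.568 and 0.648, and the class of 0 to 4 has intervals that include 1.

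Some genes had a start call in both stages. By the 250 bp window 326 genes had one in M (1.86% of the 17492 genes with a start) and 169 in RS (0.966%). Both lists had one at 19 genes, which is 11.2% of the RS genes and 5.83% of the M genes. M at 2 U, with 475 such genes, held 20 of the RS genes, and RS at 0.5 U, with 444, held 36 of the M genes. Lists of the same stage also shared few. Of the RS genes, RS at 0.5 U held 18 and RS at 2 U 12. Of the M genes, M at 0.5 U held 18 and M at 2 U 47.

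The X chromosome had the stage difference that stood farthest from the autosomes. It carried 176 calls in RS (1.05 per Mb) and 737 in M (4.41 per Mb), while the autosomes carried between 12.3 and 15.4 calls per Mb in RS and between 16.4 and 23.9 in M. The stage ratio of X was 0.358 (0.302 to 0.423), and the autosomes lay between 0.891 (chromosome 3) and 1.22 (chromosome 11). Merging overlapping calls to 1 position left 113 positions in RS and 499 in M, a ratio of 0.333. The gap was smaller among calls above the minimum of reads (47 and 155 calls, ratio 0.495, 0.349 to 0.690). At the other amounts it was 0.171 at 0.5 U and 0.619 at 2 U, and at equal MNase per cell 0.216 when RS at 1 U was set over M at 0.5 U, and 0.457 when RS at 2 U was set over M at 1 U. Y carried 66 calls in RS and 78 in M, a ratio of 1.27 (0.900 to 1.78) whose interval includes 1, and after merging 26 and 38 positions. At 0.5 U the ratio of Y was 0.174 (0.120 to 0.250), close to that of X, and at 2 U 1.37 (0.934 to 1.98).

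**Figure D3:**
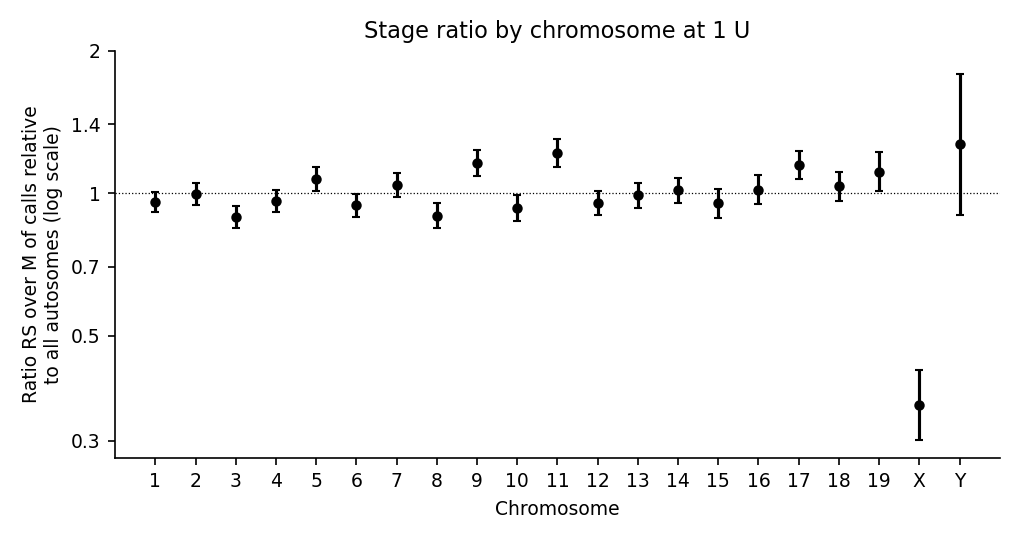
Stage ratio of calls at 1 U for each chromosome (x axis) relative to all autosomes (y axis, log scale). Points are ratios and bars exact 95% intervals for counting error; the dotted line marks 1. X lies at 0.358, the autosomes between 0.891 and 1.22, and Y at 1.27 with an interval that includes 1.

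The deficit on X ran along the chromosome. Of 18 bins of 10 Mb, 17 had a ratio below 1, with a median of 0.338 and a lowest value of 0.0937 between 140 and 150 Mb (2 calls in RS, 32 in M). The exception was the last bin, with 2 and 1 calls. The bin from 30 to 40 Mb held the most calls, 34 in RS and 144 in M, of which the megabase from 31000001 to 32000000 had 18 and 95. Without that 10 Mb bin the ratio of X was 0.359 (0.297 to 0.432).

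Single genes on X held few calls. Dmd, the very long dystrophin gene, had 0 calls in RS and 11 in M, and 3 against 18 at 0.5 U and 0 against 6 at 2 U, so M had more at each amount. Bcorl1, a transcriptional corepressor gene, and Gpm6b, a membrane proteolipid gene, had 0 calls in RS and 4 in M each. Cldn34d, of the claudin family, had 11 calls in RS and 9 in M, a ratio of 1.83 (0.690 to 5.00) whose interval includes 1. These calls merged to 2 positions in RS and 1 in M, and each of the other lists held 9 to 12 calls. Apool and Apoo, genes of the mitochondrial contact site complex, had 6 and 8 calls and 4 and 1. Mageb18 had 3 in RS and 0 in M, and Zc3h12b 3 in each. Of 54 X-linked multicopy and postmeiotic genes, 51 had no call at 1 U, against 14516 of all 21887 protein-coding genes. Tex16 had 0 and 2 calls, and Tex11, of meiotic recombination, 1 and 0.

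On autosomes the 2 lists at 1 U differed by the gene content of a region. RS had less enzyme per cell, and bins were not read at equal MNase per cell. Stage and enzyme per cell therefore cannot be told apart in the bins. Of 2139 bins of 1 Mb with 20 or more calls in both lists together, 178 (8.32%) were at least 2-fold higher in RS and 192 (8.98%) at least 2-fold lower. The higher bins had a median of 9 protein-coding genes, the lower bins 2, and all bins 5. The chromosomes with ratios above 1 whose intervals exclude 1 were 5, 9, 11, 17 and 19, at 1.07, 1.16, 1.22, 1.15 and 1.11, and they have 8.53, 9.90, 13.5, 11.5 and 12.1 genes per Mb. Those below 1 whose intervals exclude 1 were chromosomes 3, 6, 8 and 10, with 6.27, 7.70, 8.26 and 7.85 genes per Mb. Chromosome 7, with 14.3 genes per Mb, had a ratio of 1.04 (0.983 to 1.10). Chromosomes 2 and 4, with 9.96 and 8.67 genes per Mb, more than chromosome 5, had ratios of 0.997 and 0.963 with intervals that include 1.

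Single bins showed how far the counts went. Chromosome 1 from 165000001 to 166000000, with 12 protein-coding genes including the T cell receptor subunit gene Cd247 (4 calls in RS, 0 in M) and Gpr161, a receptor of cilia (3 and 0), had 23 calls in RS and 3 in M. Chromosome 13 from 49000001 to 50000000 had 17 and 3, and chromosome 17 from 29000001 to 30000000 had 17 and 4. Chromosome 4 from 46000001 to 47000000, around Coro2a, had 31 and 8. In the other direction, chromosome 12 from 119000001 to 120000000 had 1 call in RS and 30 in M, of which Tmem196 held 0 and 6. Chromosome 15 from 18000001 to 19000000, around the cadherin gene Cdh10, had 1 and 21. Bins on chromosome 18 from 70000001 to 71000000 and on chromosome 13 from 61000001 to 62000000 had 3 and 33 calls and 2 and 23. A bin without protein-coding genes, chromosome 8 from 52000001 to 53000000, had 5 and 49.

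At the other amounts these bins kept part of their difference. The ratio was above 1 at 0.5 U in 69.7% of the bins higher in RS at 1 U, against 50.7% of all 2139 bins, and at 2 U in 56.7% against 48.2%. For the bins lower in RS at 1 U it was above 1 in 45.3% at 0.5 U and 41.1% at 2 U. The chromosome 1 bin had a ratio of 0.990 at 0.5 U and 0.758 at 2 U, while the bin around Coro2a had 1.62 and 1.76.

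Gene bodies as a whole held a slightly larger share of the calls in RS. Over the 21887 protein-coding genes with 1000 bp on each side the stage ratio was 1.15 (1.12 to 1.18), from 13208 calls in RS and 17213 in M. By length, in classes chosen after the data were seen and without the flanks, it was 1.07 for autosomal genes under 10 kb (0.942 to 1.21), 1.4 for 10 to 50 kb (1.32 to 1.47), 1.30 for 50 to 200 kb (1.25 to 1.35) and 0.997 for longer genes (0.963 to 1.03). The middle classes were above 1 at the other amounts too, at 1.52 and 1.44 at 0.5 U and at 1.29 and 1.17 at 2 U. Over all genes with flanks the ratio was 1.19 at 0.5 U and 1.07 at 2 U. Gene bodies and gene lists were not read at equal MNase per cell, so stage and enzyme per cell cannot be told apart in them. Most genes had no call: 14516 had none in either list at 1 U, 4838 had calls in RS, 5006 in M and 2473 in both.

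Single genes rested on few calls. Of 737 genes with 10 or more calls in both lists together, which were long (median 348 kb against 17.2 kb for all), 107 (14.5%) were at least 2-fold higher in RS and 119 (16.1%) at least 2-fold lower. The 10 genes at each end were taken by the ratio with 0.5 call added. Coro2a, an actin-binding coronin gene, had 15 calls in RS and 1 in M, a ratio of 22.5 (3.46 to 947). Glo1, for the glyoxalase that removes methylglyoxal, had 12 and 1 (18, 2.66 to 769). Arsb, a lysosomal sulfatase gene, and Myo1e, a myosin gene, had 10 and 0 each, with intervals that start at 3.36. Setting 0 to 3 counts gives 5.00-fold higher in RS, without the counting error of the 10. St6galnac1, a sialyltransferase gene, had 10 and 1, the transcription factor gene Sox6 and Klhl14 9 and 1 each, the contactin gene Cntn6 12 and 2, the sorting receptor gene Sorl1 9 and 2 and the dynein light chain gene Dynlt1b 12 and 3.

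At the low end H60b, for a ligand of a natural killer cell receptor, had 0 calls in RS and 14 in M. Its interval reaches up to 0.452, and setting 0 to 3 counts gives 3.11-fold lower. Plxdc2 had 0 and 13, and the cystine transporter gene Slc7a11 and the pheromone receptor gene Vmn2r30 had 0 and 12 each. Besides Dmd, the genes with 0 calls in RS and 10 in M were Disc1, Ldlrad3, Pid1 and Nr3c2, the last for the mineralocorticoid receptor. Ofcc1 had 1 and 15.

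**Figure D4:**
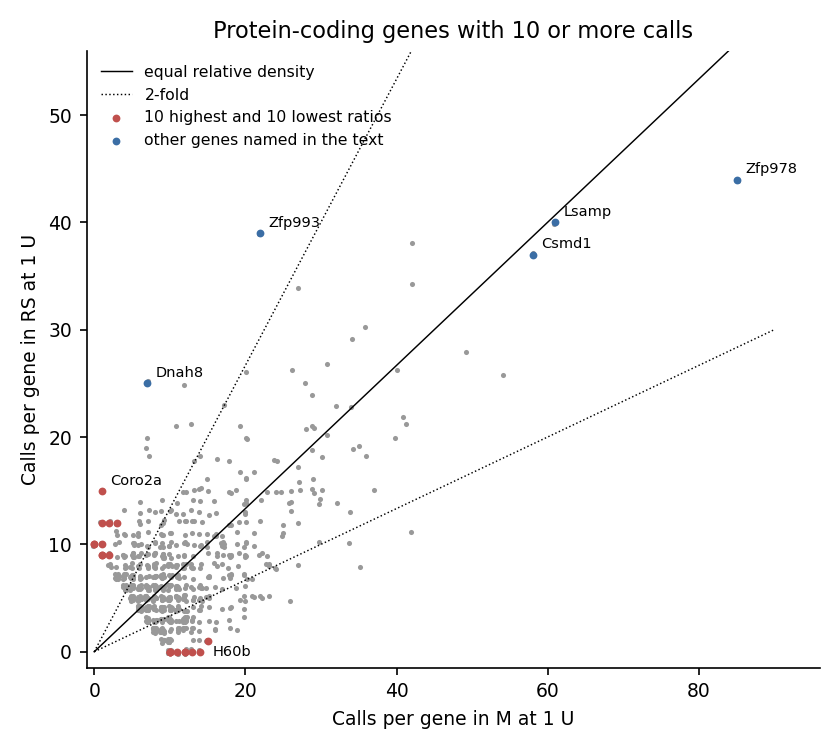
Calls per protein-coding gene at 1 U in M (x axis) and in RS (y axis), for the 737 genes with 10 or more calls in both lists together; grey points are shifted slightly so that they do not cover each other. The solid line is the same share of calls and the dotted lines a 2-fold difference. Genes with few calls spread widely about the line, and Dnah8 (25 in RS, 7 in M) and Zfp993 (39 and 22) lie above it while Zfp978 (44 and 85) lies below.

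Most of these differences did not return at other amounts. Genes at least 2-fold higher in RS at 1 U had a ratio above 1 in 51.4% of cases at 0.5 U and 57.0% at 2 U, and those at least 2-fold lower in 47.1% and 52.1%. Over all 737 genes the shares were 46.3% and 50.2%. Of the 10 genes highest in RS, 4 had a ratio above 1 at both other amounts. Glo1 had 18 calls in RS against 0 in M at 0.5 U and 6 against 3 at 2 U. Sox6 had 41 against 1 and 6 against 5, and Coro2a 26 against 3 and 13 against 12. The fourth was Dynlt1b. Glo1 ends at 30612659 on chromosome 17, beside Dnah8, which starts at 30626935, so their calls may not be independent. On its other side Btbd9 had 10 calls in RS against 9 in M at 1 U, 81 against 2 at 0.5 U and 14 against 10 at 2 U. Of the 10 lowest, 3 had a ratio below 1 at both: H60b, Vmn2r30 and Dmd. Cntn6 had 25 against 5 at 0.5 U, a ratio of 0.958 given the larger RS list, and 0 against 16 at 2 U, a ratio of 0.0820. The calls in a gene also overlap: the 15 of Coro2a merged to 4 positions and the 14 of H60b to 7.

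Genes for the sperm tail, for the exchange of histones and for meiosis had higher stage ratios than all genes together. Beside the ratio of 1.15 for all genes, 62 genes of the flagellum, the sperm tail, had 92 calls in RS and 68 in M, a ratio of 2.03 (1.47 to 2.82), and 22 members had a larger share of the list's calls in RS, 8 in M and 32 had none, against 3785, 3586 and 14516 of all genes. Dnah8, a dynein heavy chain of the axoneme, had 25 and 7, a ratio of 5.35 (2.25 to 14.7), and also more in RS at 0.5 U (78 and 2) and 2 U (23 and 7). Its paralogue Dnah9 had 5 and 14. Dnah8 lies beside Glo1 on chromosome 17, so the calls of these genes may not be independent. Without Dnah8 the flagellum ratio was 1.65 (1.15 to 2.37). With Dnah8 included it was 2.63 at 0.5 U and 2.96 at 2 U, and it was not computed without Dnah8 at those amounts. Of the 5 members with 10 or more calls, 1 was at least 2-fold higher and 0 lower, against 14.5% and 16.1% of all genes.

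The 39 genes of the exchange of histones for protamines had 26 calls in RS and 13 in M, a ratio of 3.0 (1.49 to 6.35). Camk4, a kinase that phosphorylates protamine, had 7 and 4, and Herc2, a ubiquitin ligase gene, 3 and 3. By share of the list's calls 10 members were higher in RS and 1 in M, and 28 had none, against 3785, 3586 and 14516 of all genes. At 0.5 U the ratio was 1.01 (0.583 to 1.85) and at 2 U 1.68 (0.879 to 3.13), with intervals that include 1. Among calls above the minimum of reads it had 2 calls in RS and 5 in M, a ratio of 0.653, so the direction rested on calls at the minimum. No call at 1 U lay in Prm1 or Prm2, which encode protamines, in Tnp1 or Tnp2, which encode transition proteins, in Sycp1 or Sycp3 of the synaptonemal complex, in the bromodomain gene Brdt or in the acetyltransferase gene Kat2a. Of all 21887 protein-coding genes, 14516 had no call at 1 U either. Prm1, Prm2, Tnp1 and Tnp2 are only 492, 729, 826 and 721 bp long. For Sycp1 and Brdt the 0.5 U list of RS, the largest of the series, held 11 and 3.

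The 70 genes of meiotic recombination and synapsis had 44 calls in RS and 24 in M, a ratio of 2.75 (1.64 to 4.73). Mei4, needed for meiotic double-strand breaks, had 9 and 4 and its partner Rec114 5 and 5. Counted by share of the list's calls, 17 members were higher in RS and 5 in M, and 48 had none. Over all genes these numbers were 3785, 3586 and 14516. The ratio was 2.62 without Mei4, 1.68 at 0.5 U (1.06 to 2.83) and 1.74 at 2 U (0.907 to 3.26), and above the minimum of reads 5 and 7 calls gave 1.17 (0.292 to 4.27). The flagellum, histone exchange and meiosis lists have median gene lengths of 49.2, 20.15 and 38.8 kb, in the length class where all genes had a ratio of 1.4, and the part of length in their ratios was not tested. The 44 acrosome genes had 19 and 19 calls (1.5, 0.751 to 2.99), with 5 and 4 at the autophagy gene Atg7 and 2 and 3 at Spaca6. The 71 genes of histone acetylation had 40 and 45 (1.33, 0.848 to 2.09), of which the deacetylase gene Hdac9 had 10 and 12 and the acetyltransferase gene Kat6b 1 and 9. By share of calls, 5 acrosome genes were higher in RS and 10 in M, and 16 and 7 of the acetylation genes.

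**Figure D5:**
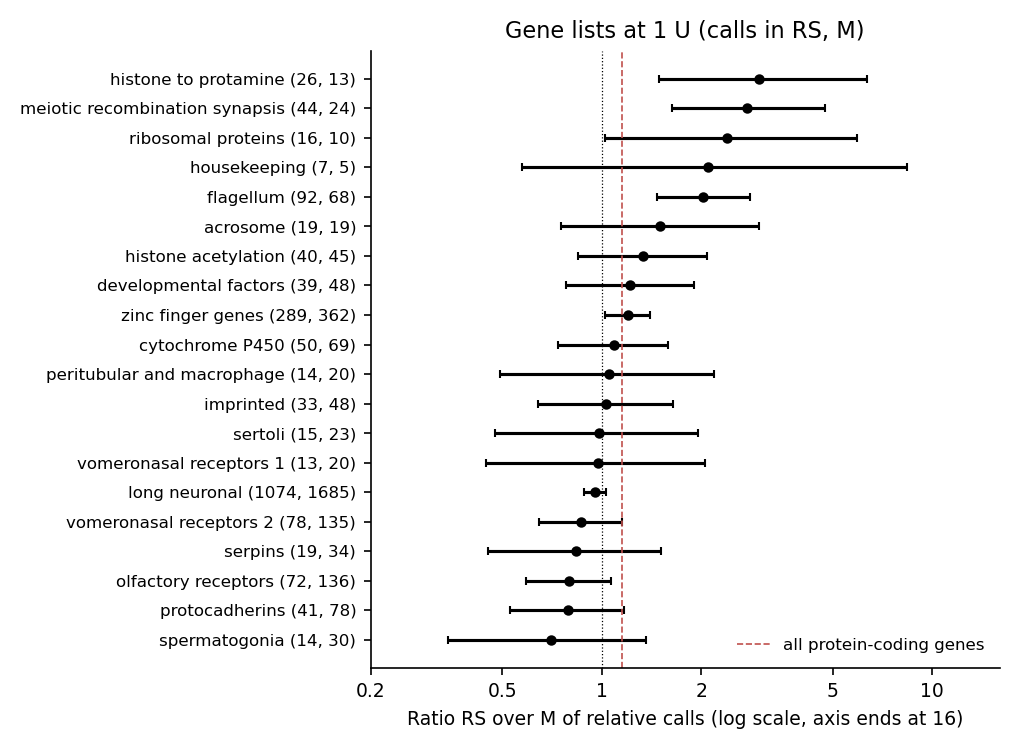
Stage ratio at 1 U (x axis, log scale) for gene lists with 10 or more calls, with the calls in RS and M in parentheses. Points are ratios and bars exact 95% intervals for counting error; the dashed line marks all protein-coding genes (1.15) and the dotted line 1. The lists for histone to protamine exchange, meiotic recombination and the flagellum lie at 3.0, 2.75 and 2.03, above the dashed line with their intervals, and the very long neuronal and the olfactory receptor genes lie below it with theirs.

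Lists for other cells of the testis went both ways and held few calls. Calls in a gene do not mark a cell type, so these counts say only where nucleosomes were called. Genes of spermatogonia had 14 calls in RS and 30 in M (0.70, 0.343 to 1.36), with the stem cell factor Zbtb16 at 5 and 4 and the receptor gene Ret at 0 and 6. Sertoli cell genes had 15 and 23 (0.978, 0.474 to 1.96), with Fshr, the receptor of follicle-stimulating hormone, at 2 and 9 and Tjp1 at 4 and 7. Leydig cell genes had 8 and 1 (12.0, 1.61 to 532), with the steroid enzyme gene Hsd3b1 at 2 and 0. Peritubular, macrophage and vessel genes had 14 and 20 (1.05, 0.490 to 2.18), with Myh11 and Ptprc at 3 and 4 each. Of the 18 Leydig genes 13 had no call in either list, against 14516 of all 21887 protein-coding genes.

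Large gene families came next. The 397 zinc finger genes of the Zfp symbols had 289 calls in RS and 362 in M (1.20, 1.02 to 1.4), but Zfp978 had 44 and 85 and its neighbour Zfp993 39 and 22. Ribosomal protein genes, whose processed copies share sequence, had 16 and 10 (2.40, 1.02 to 5.91), with Rps6 at 4 and 3 and Rps15a at 3 and 0. Receptors of smell had 72 and 136 (0.794, 0.588 to 1.06), the pheromone receptor families Vmn1r and Vmn2r 13 and 20 (0.974, 0.445 to 2.06) and 78 and 135 (0.866, 0.647 to 1.15), and protocadherins 41 and 78 (0.788, 0.526 to 1.16). Very long neuronal genes had 1074 and 1685 (0.956, 0.884 to 1.03), with the adhesion gene Lsamp at 40 and 61 and Csmd1 at 37 and 58. Of their 69 members with 10 or more calls, 7 were at least 2-fold higher in RS and 5 lower, against 14.5% and 16.1% of all genes tested.

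The remaining lists had intervals that include 1: imprinted genes with 33 calls in RS and 48 in M (1.03), developmental transcription factors with 39 and 48 (1.22), cytochrome P450 genes with 50 and 69 (1.09), serpins with 19 and 34 (0.838), housekeeping genes with 7 and 5 (2.10), X-linked multicopy genes with 1 and 3, replication-dependent histone genes with 3 and 4 and keratin-associated genes with 2 and 0. Snrpn, an imprinted gene for a splicing protein, had 2 and 13. In all, 6 of 24 lists had an interval above 1, none below, and 4 an interval above the ratio of all genes. The ribosomal interval reached below 1 under each alternative tried, to 0.812 without flanks and 0.701 after merging. That of the Leydig list did so with wider flanks (0.934) and without the member with most calls (0.839). Names in the histone and ribosomal lists were corrected after values had been seen.

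Most calls had no counterpart in the other stage. A call counted as shared when a midpoint of the other list lay within 73 bp. Sharing by chance and sharing between lists of the same stage were not computed, so these shares do not measure a difference between stages. Outside dense bins 4.05% of RS calls (3.84 to 4.26) and 2.79% of M calls (2.65 to 2.94) were shared, and after merging overlapping calls 530 positions, 2.27% of RS and 1.53% of M, while in dense bins 66.8% and 59.2% were. Dense bins held 15.1% of the RS and 12.3% of the M calls on the 21 chromosomes, and with them 13.5% and 9.71% were shared. Sharing depended on the strength of a call. Outside dense bins calls of 6 reads were shared in 1.82% of cases in RS and 1.31% in M, those of 7 reads in 5.00% and 2.87%, those of 8 to 9 in 20.7% and 11.2%, and those of 10 or more in 86.7% and 76.3%. Shared midpoints lay a median of 10 bp apart.

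Strong positions found in a single stage were few. Outside dense bins 413 RS calls and 535 M calls had 10 or more reads, and 35 in RS (8.47%, 5.97 to 11.6) and 91 in M (17.0%, 13.9 to 20.5) had no call of the other list within 1000 bp. Overlapping calls merged to 26 and 67 such positions. The strongest of RS, of 13 reads, lay in the pseudogene Speer8-ps1 on chromosome 5, near the pheromone receptor gene Vmn2r32 on chromosome 7 and in Gm52481 on Y. Next were one of 12 reads on chromosome 14, 133381 bp from the nearest gene B230110C06Rik, and one of 11 reads on chromosome 16, 81067 bp from Ncam2. The strongest of M, of 16 reads, lay in the pseudogene Gm35498 on chromosome 1, followed by C130026I21Rik and the long noncoding RNA gene Gm30613 at 12 reads each, and by the immunoglobulin heavy chain locus and a place 18480 bp from the pseudogene Gm2534 at 11 reads each. Of the 5 RS positions, 3 had M calls within 1000 bp at 2 U, and of the 5 M positions 4 had RS calls at 0.5 U. No list of the other stage had a call there for 2 of the RS positions and 1 of the M positions.

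Neighbouring calls sat alike in both lists. Of neighbouring midpoints 30.4% in RS and 31.7% in M were less than 140 bp apart, that is, overlapping, and a merged position held 1.44 and 1.46 calls. The median distance to the next call was 28853 bp in RS and 16920 bp in M, as the lists differ in size. Clusters of 5 or more calls no more than 200 bp apart numbered 84 and 132, and the longest spanned 995 and 998 bp.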

How the data were processed

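The lists were deposited by the authors, who made each from both samples of a group, per the series' design text. STAR 2.5.2a and the build GRCm38/mm10 appear in the submitters' processing notes; which program called nucleosomes, and at what threshold, is not given in the sources used here. The p-value of each call is the only measurement the authors deposited, so sequencing depth is unknown. Implied reads were computed by matching p-values to Poisson tails, and 181 RS and 172 M calls with p under 1e-300 were assigned the next count. Calls were placed by midpoint on 21 chromosomes and joined to RefSeq genes (21887 protein-coding) and promoter sequences (17492 genes), both of GRCm38.p6. Windows called in a list hold a call midpoint. Stages were compared with exact conditional binomial intervals, shares with Clopper-Pearson intervals and counts with exact Poisson intervals, with Python 3.11.15, numpy 2.4.6, pandas 2.3.3 and scipy 1.17.1. No test of the stages was possible.

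Named genes were the 10 highest and 10 lowest ratios among genes with 10 or more calls, the 2 members with most calls per gene list, 8 fixed germ cell genes, the 5 X genes with most calls per list, the 5 highest and 5 lowest 1 Mb bins and the 5 strongest positions per list found in a single stage; any other name was picked with its value known. Of these, 1 gene and 1 bin are not reported here. Members and lists were chosen with earlier results of these data known. The 250 bp start window, the flank, the CpG and length classes, the steps around starts, the motifs and the printed promoters were chosen after values were seen. Alternatives were other windows, flanks, thresholds, merged calls, dense bins and equal MNase per cell. The steps were tested on simulated data.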

Additional observations from a re-analysis of the deposited data

Results flagged for a closer look

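Stage ratios of 3 kinds lay on opposite sides of 1 at the lowest and the highest amount of MNase, each with an interval that excludes 1; the difference between amounts was not tested. For Sertoli cell genes the ratio was 0.456 at 0.5 U (0.277 to 0.773; 53 calls in RS, 24 in M), 0.978 at 1 U and 2.71 at 2 U (1.11 to 6.59; 12 and 12). Within 1000 bp of gene starts it was 1.13 at 0.5 U (1.02 to 1.26), 1.01 at 1 U and 0.848 at 2 U (0.760 to 0.945). For genes of 200 kb or more it was 1.04 at 0.5 U (1.01 to 1.07), 0.997 at 1 U and 0.942 at 2 U (0.904 to 0.981).

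Contigs outside the 21 chromosomes were counted in the list sizes but in no stage ratio. They held 2139 calls in RS and 2244 in M at 1 U, most of them on 1 unplaced contig with 1722 and 1729. The near-equal numbers stand beside lists of 41655 and 60077 calls.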

How the results depend on the processing

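No paired analysis was possible because the authors pooled both samples of a group into 1 list; for the same reason no replicate could be left out. Of 72 alternative values of the main results, 33 stayed within the counting interval (or 1.5 times the count), 37 moved and 2 reversed; the cause was not tested. The list size ratio was 0.662 without dense bins. Shared calls were 10.3% of RS and 7.12% of M within 20 bp, 15.5% and 11.3% within 140 bp, 4.04% and 2.79% without dense bins, and 30.9% and 21.5% among calls above the minimum of reads. Strong positions in a single stage numbered 184 in RS and 401 in M at 9 or more reads, and 51 in M with no call within 10000 bp. The X ratio was 0.495 above the minimum of reads, 0.457 when RS at 2 U was set over M at 1 U, 0.216 when RS at 1 U was set over M at 0.5 U, below 1 throughout. Bins of 1 Mb higher and lower in RS numbered 395 and 459 at 1.5-fold, 22 and 53 with 40 or more calls, and 61 and 110 after merging. Genes numbered 165 and 190, 15 and 23 (20 or more calls), and 35 and 46. With calls above the minimum of reads 2 gene lists had an interval above 1, and the histone to protamine ratio reversed to 0.653 (2 calls in RS, 5 in M). The ratio within 1000 bp of starts was 0.828 at 500 bp, 0.718 at 250 bp and 1.62 for RS at 1 U over M at 0.5 U. For that pair the promoter window reversed to 1.36 and the 250 bp window to 1.28; the latter was 0.592 above the minimum of reads and 0.930 for RS at 2 U over M at 1 U. With dense bins, overlapping neighbours were 36.5% in RS and 36.7% in M, and clusters of 5 or more calls 398 and 553. Of 134 values of single gene lists, 124 stayed within the interval.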
